A study of Mus musculus with 105 samples.

Results

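Firre, Armcx4, Rragb and Tbl1x are genes of the mouse X chromosome that were proposed as early silenced genes. They are 4 of the 52108 genes in the bulk count tables and 4 of the 2511 X-linked genes outside the deleted Xist region. They were chosen by the ratio of counts from the inactive X (Xi) to counts from the active X (Xa) in differentiating female mouse embryonic stem cells, at day 2 against day 4, and by their spliced and unspliced counts. Those values chose the genes, so they are given below as a description with no test, and tests are limited to measures the choice did not use.

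The cells were female embryonic stem cells of the line TX1072, an F1 hybrid of the strains C57BL6/J (B6) and Cast/EiJ (Cast), in which sequence differences assign a read to its parental X. TX1072 has a doxycycline-responsive promoter before Xist on its B6 chromosome and the rtTA transactivator in the Rosa26 locus. The other lines derive from it, and the deletion in TXdXicB6 takes that promoter and the B6 Xist with it. Differentiation was started by withdrawal of 2i and Lif, which hold the naive state. TX1072 chooses its Xi at random, and the paper reports a preference for the B6 chromosome. TXdXicB6 lacks the Xist region on the B6 chromosome, so that its Xi is Cast, and TXdXicCast lacks it on the Cast chromosome, so that its Xi is B6. Each of the deletion lines is 1 clone, so line and clone cannot be told apart. Bulk RNA-seq covered days 0, 1, 2, 3 and 4 with 3 replicates a day in each line (45 libraries), each replicate number being a differentiation started on its own day. Single TX1072 cells were captured at the same days from 1 culture a day, in 10 capture columns a day (50 in all). The 10 columns of day 1 alone were also sequenced in a second mode, the Rapid Run.

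X inactivation silences 1 of the 2 X chromosomes of a female cell. The noncoding RNA Xist spreads from its locus over the chromosome that expresses it, and genes differ in how soon they lose expression from that chromosome. Silencing on a single chromosome leaves the other allele active, so a gene can lose its Xi transcripts while its total level rises, falls or stays as it was. Firre makes a nuclear long noncoding RNA that binds the matrix protein hnRNPU and whose locus binds CTCF. Armcx4 belongs to the armadillo-repeat genes of the Armcx and Gprasp cluster, found on the X of placental mammals. Rragb encodes RagB, a GTPase that recruits the kinase complex mTORC1 to the lysosome when amino acids are present. Tbl1x encodes a WD40-repeat subunit of the NCoR corepressor, which carries the histone deacetylase Hdac3.

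The genes lie on both sides of Xist (GRCm38, GENCODE vM21). Firre (ENSMUSG00000085396, minus strand) is at chrX:50555744-50635321 and Tbl1x (ENSMUSG00000025246, plus strand) at chrX:77511013-77662983, with starts 52.8 and 26.0 Mb from the start of Xist on the centromere side. Armcx4 (ENSMUSG00000049804, plus strand) is at chrX:134686519-134696757 and Rragb (ENSMUSG00000041658, plus strand) at chrX:153139981-153171943, with starts 31.2 and 49.7 Mb away on the telomere side. In none of them does an exon overlap another annotated gene. The only other gene annotated within them is the small nuclear RNA gene Gm23121 in an intron of Tbl1x.

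Every bulk allelic value below rests on single-base differences between B6 and Cast within exons. The deposited list of differences held 46 in the exons of Firre, 13 in Armcx4, 6 in Tbl1x and 4 in Rragb. For each gene, 1 of them is shown with 12 bases on either side, the one nearest the 3′ end of the longest transcript that had no other difference in that window. Single-cell reads were taken from 3′ ends, which is why these sites are shown. The sequences are GENCODE transcripts, read in the direction of the transcript, with the differing base in capitals as it is in B6. In the substitutions, position 13 is counted from the 5′ end of the window, with the B6 base first and the Cast base last.
Firre: ttgtaaaaccaaCcaaacaaaaaaa
Armcx4: aagagggaaaacAtatccccaagac
Rragb: gatgtatatcaaGatcttgtttcaa
Tbl1x: caacacgctcttCgagaagaaaaaa
The Firre site (C13A, chrX:50563462-50563486) lies in the last of 20 exons of a noncoding transcript, 349 bases from its end. The Armcx4 site (A13G, chrX:134696256-134696280) lies in the coding part of the last of 6 exons, 489 bases from the end. The Rragb site (G13T, chrX:153171825-153171849) is in the UTR of the last of 11 exons, and the Tbl1x site (C13T, chrX:77662868-77662892) in the UTR of the last of 16 exons, 106 and 103 bases from the end. The allelic values of Rragb and Tbl1x thus rest on few positions.

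The 300-base RefSeq promoter windows (GRCm38) of the 4 genes had a GC content of 61.7% in Rragb, 62.7% in Firre, 63.3% in Armcx4 and 75.3% in Tbl1x. The ratio of observed to expected CpG was 0.41 in Firre, 0.63 in Rragb, 0.68 in Armcx4 and 1.02 in Tbl1x. Among 1046 X-linked promoter windows these ratios stood at the 55.3rd, 73.8th, 77.5th and 96.8th percentiles. The GC content was between the 84.7th and the 98.6th percentile, so the genes shared a high GC content but not a high ratio of observed to expected CpG.

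Library depth and the line labels were examined first. Total counts were 19827011 to 39628784 a library in TX1072, 20246434 to 49962859 in TXdXicB6 and 16906263 to 57920260 in TXdXicCast. In the deletion lines, 0 to 0.187% of allele-specific Xist counts came from the deleted allele, in every library. Xist rose in TX1072 from 0.618 ± 0.283 CPM (counts relative to library size, scaled by TMM factors over autosomal genes) at day 0 to 205.4 ± 59.0 on day 2 (SD, n = 3), a log2 change of 8.46. The share of counts that could be assigned to an allele stood apart in 4 libraries. It was 5.21% in TXdXicB6 day 0 replicate 1, 9.57% in TXdXicB6 day 2 replicate 2, 20.3% in TXdXicB6 day 2 replicate 1 and 22.9% in TXdXicCast day 3 replicate 3, against 29.85 to 34.92% in the other deletion-line libraries. TXdXicCast day 0 libraries were fragmented in another way because their RNA was degraded. TX1072 bulk libraries were made with another kit and read length than those of the deletion lines, so levels were not tested between TX1072 and the deletion lines.

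The cultures left the naive state over the same days. Of 5 stem cell markers, 4 fell in TX1072 by day 2 and 5 by day 4, and of 4 formative markers all 4 rose at both days. Of all genes tested, 28.6% were called higher and 27.4% lower at day 2, and 29.8% and 30% at day 4. The summed stem cell markers, Pou5f1 being the most abundant, went from 3614.6, 3639.8 and 4191.1 CPM at day 0 to 1447.4, 1394.7 and 1322.6 CPM on day 2. The summed formative markers, led by Dnmt3b, went from 257.7, 317.7 and 262.2 CPM to 3285.6, 3248.2 and 3273.4 CPM and were back at 1031.1, 892.9 and 896.9 CPM at day 4. At day 4 markers of other cells had also risen in TX1072. All 4 endoderm markers were called higher, their sum (led by Foxa2) being 38.6, 9.99 and 9.41 CPM against 1.11, 1.29 and 2.09 CPM at day 0. Of 3 mesoderm markers, 2 were tested and both were higher, the sum (led by T) being 237.7, 118.3 and 87.9 CPM against 11.4, 14.4 and 12.7 CPM. Mesp1 was too low to be tested and had no count in TXdXicB6 at days 0 and 4. Of 2 neural markers 1 rose and 1 fell at day 4, and the 1 trophoblast marker tested (Cdx2) fell. Neural markers summed to 1.94, 1.85 and 3.22 CPM and trophoblast markers to 2.05, 2.90 and 3.29 CPM at day 4. The part of these cell types in the values of the 4 genes was not tested, and in bulk RNA fewer expressing cells and less RNA per cell cannot be told apart.

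The Xi share of Firre fell in both deletion lines, from opposite starting points. In TXdXicB6 the Cast allele (Xi) gave 26.7, 23.8 and 26.3% of allele-specific Firre counts at day 0 in replicates 1, 2 and 3, 15.8, 16.5 and 11.4% on day 2 and 6.38, 5.85 and 6.72% at day 4. In TXdXicCast the B6 allele (Xi) gave 81.2, 77.5 and 75.7% at day 0, 59.3, 55.8 and 54.6% on day 2 and 50.9, 50.8 and 48.8% at day 4. In both lines all libraries of day 2 lay below all of day 0, and all of day 4 below all of day 2. On the log2 scale of Xi:Xa (1 added to each count), the change from day 0 was -0.99 ± 0.43 at day 2 and -2.35 ± 0.07 on day 4 in TXdXicB6, and -1.46 ± 0.10 and -1.83 ± 0.20 in TXdXicCast. Here and for the genes below, the error of an Xi:Xa change is the SD over 3 replicates of the difference from the same replicate's day 0. The B6 Xi was still the source of 50.2% of summed counts at day 4 in TXdXicCast, against 6.31% for the Cast Xi in TXdXicB6.

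Armcx4 had the largest mean Xi:Xa fall of the 4 in TXdXicCast. The Xi share there was 55.4, 57.2 and 56.1% at day 0, 26.7, 32.6 and 23.5% on day 2 and 23.7, 21.9 and 22.3% at day 4, a log2 Xi:Xa change of -1.76 ± 0.29 on day 2 and -2.12 ± 0.12 at day 4. The day 2 and day 4 libraries overlapped, and both stood apart from day 0. In TXdXicB6 the share was 30.0, 44.8 and 50.9% at day 0, 35.3, 31.8 and 25.4% on day 2 and 22.9, 20.3 and 16.0% at day 4, and days 0 and 2 overlapped. The lowest day 0 value rested on 40 allele-specific counts, in the library with the smallest assigned share. The change in TXdXicB6 was -0.69 ± 0.95 at day 2 and -1.56 ± 0.93 on day 4, but without replicate 1 it was -1.18 and -2.04 and without replicate 3 it was -0.24 and -1.12.

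Rragb showed the strongest Xi:Xa fall of the 4 in TXdXicB6 at day 2, but at day 4 it overlapped Firre (-2.35 ± 0.07). The Cast share was 61.5, 59.3 and 59.7% at day 0, 34.6, 31.7 and 30.4% on day 2 and 26.9, 17.9 and 18.6% at day 4, with no overlap between days, although the day 0 value of replicate 1 rested on 13 allele-specific counts. The log2 Xi:Xa change was -1.62 ± 0.12 and -2.47 ± 0.39. In TXdXicCast the B6 share was 31.4, 38.6 and 51.3% at day 0, 25.5, 27.1 and 26.9% on day 2 and 23.7, 26.6 and 20.2% at day 4, a change of -0.92 ± 0.53 and -1.15 ± 0.77. From its own day 0, each replicate changed by -0.48, -0.77 and -1.51 at day 2. Days 2 and 4 overlapped there, and the day 0 values rested on 35, 88 and 113 allele-specific counts. Without replicate 3, whose day 0 share was the highest, the changes in TXdXicCast were -0.63 and -0.71.

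The Xi share of Tbl1x was lower at day 2 than at day 0 and lower at day 4 than at day 2 in both lines. Its Cast share in TXdXicB6 was 56.0, 48.2 and 52.6% at day 0, 34.3, 30.8 and 31.4% on day 2 and 27.9, 23.8 and 25.3% at day 4, a log2 change of -1.20 ± 0.13 and -1.66 ± 0.08. In TXdXicCast its B6 share was 70.0, 68.6 and 71.2% at day 0, 53.2, 51.2 and 51.0% on day 2 and 47.5, 46.6 and 46.2% at day 4, a change of -1.11 ± 0.11 and -1.40 ± 0.11. The 3 days did not overlap in either line. Before differentiation the B6 allele supplied 69.9% of summed counts in TXdXicCast, whereas the Cast allele supplied 50.4% in TXdXicB6, so the lines did not start from the same allelic balance. As for Firre, the 46.9% that the Xi still supplied at day 4 of TXdXicCast was reached from a B6-biased start. Every Xi:Xa change in TXdXicCast is measured from its day 0 libraries of degraded RNA, and the effect of that RNA state on the allelic balance was not tested. Between days 1 and 4, which leaves those libraries out, the summed Xi share in TXdXicCast went from 62.2 to 46.9% for Tbl1x, from 68.9 to 50.2% for Firre, from 50.9 to 22.9% for Armcx4 and from 39.7 to 23.4% for Rragb.

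A lower Xi:Xa can come from less Xi RNA, more Xa RNA or both, so the alleles were also read apart, as CPM of all allele-assigned counts in the library (mean ± SD, n = 3). In TXdXicCast, Firre from the Xi was at 60.4 ± 9.95 CPM at day 0, 10.8 ± 2.75 on day 2 and 60.0 ± 5.63 at day 4, while Firre from the Xa was at 16.7 ± 0.586, 8.27 ± 2.06 and 59.7 ± 7.63. Its Xi level at day 4 thus overlapped that of day 0, and the Xa level was higher. In TXdXicB6 Firre from the Xi was at 20.8 ± 1.26, 4.04 ± 0.856 and 14.4 ± 4.71 CPM, and from the Xa at 60.6 ± 3.07, 23.7 ± 1.51 and 210.8 ± 55.8.

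For Tbl1x the lines differed in the same reading. Its Xi level in TXdXicB6 was 71.9 ± 3.48 CPM at day 0, 35.2 ± 3.00 on day 2 and 32.4 ± 4.15 at day 4, whereas in TXdXicCast it was 77.4 ± 18.3, 72.1 ± 6.96 and 100.8 ± 5.04, with the Xa going from 33.6 ± 9.86 to 114.9 ± 6.71. Rragb from the Xi was at 8.07 ± 2.26, 14.1 ± 0.776 and 9.65 ± 2.57 CPM in TXdXicB6 and at 2.66 ± 0.853, 11.8 ± 1.66 and 6.75 ± 1.62 in TXdXicCast, so no Xi mean of days 2 and 4 lay below that of day 0, and the Xa means were higher (5.38 to 35.8 and 3.89 to 21.7 from day 0 to day 4). Armcx4 from the Xi was at 13.4 ± 5.05, 9.80 ± 1.74 and 6.43 ± 0.413 CPM in TXdXicB6 and at 49.2 ± 10.7, 13.7 ± 4.39 and 7.75 ± 1.09 in TXdXicCast. The TXdXicCast values of day 0 come from the degraded libraries.

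**Figure D1:**
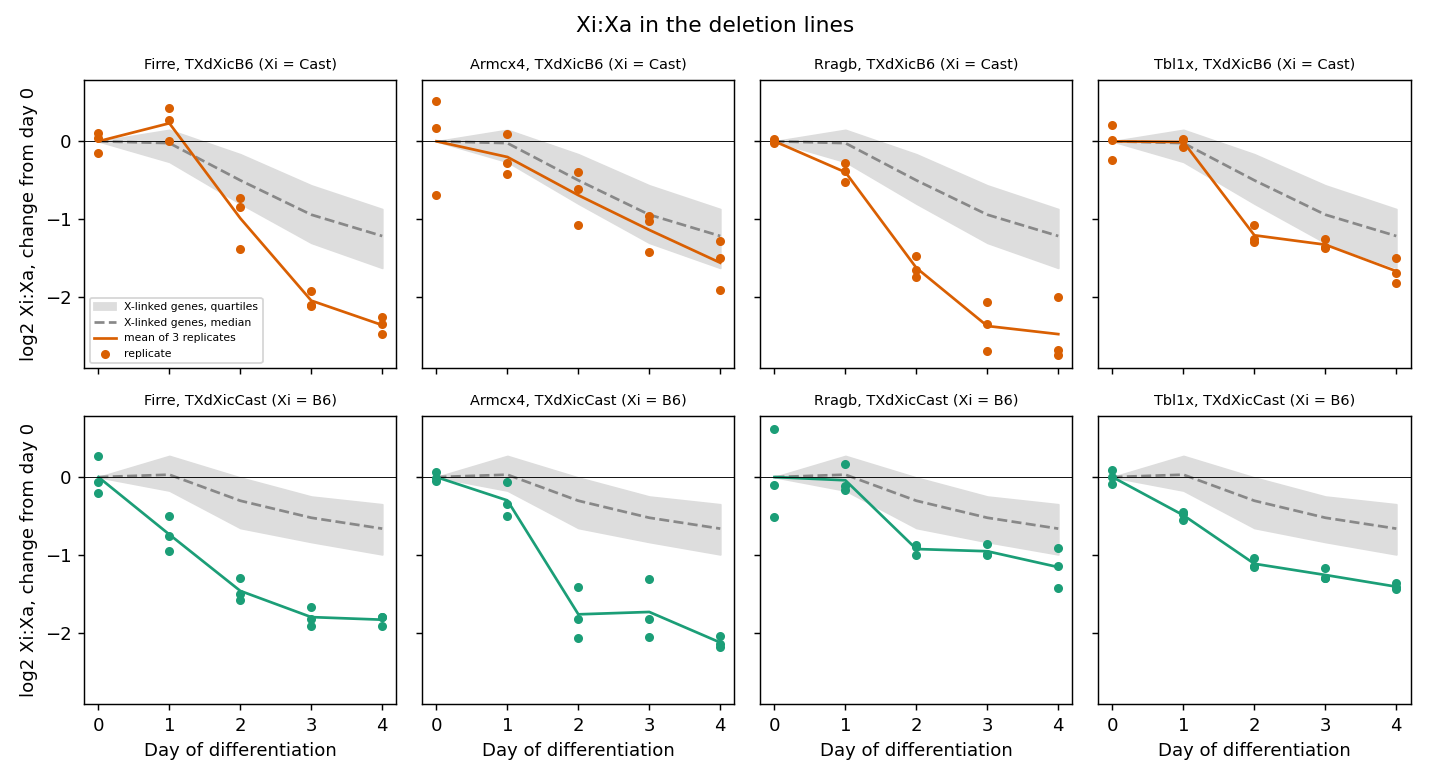
Change of log2 Xi:Xa from the day 0 mean (vertical axis) by day of differentiation (horizontal axis) for each gene, in TXdXicB6 (top, Xi is Cast) and TXdXicCast (bottom, Xi is B6). Points are replicates, lines their mean, and the grey band and dashed line the quartiles and median of 332 X-linked genes. At day 2 all 8 means lie below the dashed line, Armcx4 in TXdXicB6 being nearest to it (-0.69 against -0.50).

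Set against 332 X-linked genes with at least 50 allele-specific counts in each line and day, the day 2 change of all but Armcx4 in TXdXicB6 lay below the lower quartile of the chromosome. These values chose the genes and are a description. The median change at day 2 was -0.50 in TXdXicB6 and -0.30 in TXdXicCast, and on day 4 it was -1.21 and -0.66. In TXdXicB6, Rragb stood at percentile 4.82, Tbl1x at 9.64, Firre at 17.5 and Armcx4 at 33.1 of the day 2 change, counted from the largest fall. Armcx4 was thus within the quartiles there, but its place there turned with the libraries used, since the change was -0.24 without replicate 3, -1.18 without replicate 1 and -1.11 with counts summed over replicates, against a lower quartile of -0.80. Without replicate 3, Firre in TXdXicB6 (-0.77) and Rragb in TXdXicCast (-0.63) were also above the lower quartiles of all replicates, -0.80 and -0.65. In TXdXicCast, Armcx4 stood at percentile 2.11, Firre at 3.92, Tbl1x at 7.23 and Rragb at 12.05. The order of these 4 means was therefore not the same in both lines, but it changed with the libraries used. Line, clone and the degraded day 0 RNA of TXdXicCast cannot be told apart in it.

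The share of the day 4 change already reached at day 2 measures timing apart from depth. In TXdXicCast it was 79.8% for Firre, 83.0% for Armcx4, 79.9% for Rragb and 79.1% for Tbl1x, against a median of 58.7% over the 208 X-linked genes that had fallen by at least 0.5 (log2) at day 4. A share as high was reached by 24.5% (for Armcx4) to 30.3% (for Tbl1x) of these genes. In TXdXicB6 the share was 72.4% for Tbl1x and 65.7% for Rragb but 44.4% for Armcx4 and 41.9% for Firre, against a median of 41.6% over 289 genes. There, 9.69 and 13.5% of genes had a share as high as Tbl1x and Rragb. For Armcx4 and Firre it was 45.3 and 49.8% of genes. By this measure Firre and Armcx4 in TXdXicB6 were near the chromosome median, but with counts summed over replicates Armcx4 was at 61.4%. Against its own day 0, a replicate of Firre in TXdXicB6 reached 25.03 to 62.02%. For Armcx4 there, replicates 2 and 3 reached 46.6 and 65.8%, while replicate 1 was 0.30 above its own day 0 at day 2 and at -0.58 on day 4, and the mean was at 58.0% without replicate 1 and 21.3% without replicate 3. At day 1 Firre had changed by -0.74 ± 0.04 and Tbl1x by -0.49 ± 0.12 in TXdXicCast, which was 40.3 and 34.8% of their day 4 change, while in TXdXicB6 they had changed by 0.23 ± 0.13 and -0.01 ± 0.24. The day 1 changes in TXdXicCast start from the degraded day 0 libraries, and line and RNA state cannot be told apart in them.

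For each gene the 3 X-linked genes with the most similar Xi:Xa course were found by the root mean square difference of the log2 change over 8 points (4 days in 2 lines). Rragb was nearest to Klf8 (0.24), whose start is 0.0975 Mb away, then to Morf4l2 (0.25) and Tmem28 (0.30). Armcx4 was nearest to Dlg3 (0.24), Maged2 (0.26) and its neighbour Armcx1 (0.30), 0.0314 Mb away. Tbl1x was nearest to Tceal8 (0.18), Fam199x and Cetn2 (both 0.25), and Firre to Gm364 (0.37), Tceal8 (0.38) and Cetn2 (0.39). Between pairs of the 4 genes the same measure went from 0.44 between Armcx4 and Tbl1x to 0.83 between Armcx4 and Rragb.

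The 8 other Armcx and Gprasp genes of the cluster had day 4 changes in TXdXicCast of -1.54 (Armcx1), -1.28 (Armcx6), -1.03 (Armcx2), -0.98 (Armcx3), -0.91 (Bhlhb9), -0.45 (Gprasp1), -0.43 (Armcx5) and 0.01 (Gprasp2), beside -2.12 for Armcx4. In TXdXicB6 the 6 other than Armcx3 and Armcx6 ranged from -1.75 in Armcx1 to -1.43 in Gprasp1, beside -1.56 for Armcx4. Armcx3 and Armcx6 rested at day 0 on 12 and 8 allele-specific counts over 3 libraries in TXdXicB6 and on 37 and 21 in TXdXicCast, too few for a firm value. Of 4 genes known to escape inactivation, Kdm6a, a histone demethylase gene, changed by 0.09 at day 4 in both lines. Kdm5c, Ddx3x and Eif2s3x changed by -0.71, -0.74 and -0.34 in TXdXicB6 and by -0.36, -0.47 and -0.51 in TXdXicCast, each less than any of the 4 genes described here.

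Total levels of the 4 genes, both alleles together, were tested in TX1072, a contrast the choice of genes did not use. All 4 passed the filter on low counts. Per kilobase of exon at day 0, Tbl1x had the highest level at 39.6 ± 0.809 CPM, ahead of Rragb at 10.6 ± 1.99, Armcx4 at 9.43 ± 0.432 and Firre at 7.99 ± 2.00 CPM per kb (SD, n = 3). The last 3 did not differ beyond their spread. By day 3 Rragb, at 35.8 ± 2.93 CPM per kb, was above Tbl1x at 29.7 ± 1.29.

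Firre RNA fell and came back. It was at 80.8, 48.2 and 68.6 CPM at day 0, at 26.7, 23.8 and 26.7 CPM on day 1, at 25.6, 11.4 and 15.0 CPM at day 2, at 55.9, 63.0 and 53.9 CPM on day 3 and at 90.8, 82.9 and 75.3 CPM at day 4. All libraries of days 1 and 2 lay below all of days 0, 3 and 4. The log2 change from day 0 was -1.36 ± 0.22 (SE) at day 1 and -1.93 ± 0.22 on day 2, with adjusted p of 5.4e-05 and 7.4e-07 by edgeR's quasi-likelihood test, and it missed the threshold of 0.05 at day 3 (-0.20, adjusted p = 0.466) and day 4 (0.33, adjusted p = 0.191). With no filter on low counts the day 4 change was called (0.38, adjusted p = 0.0168).

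Tbl1x followed a shallower course of the same shape. It was at 275.8, 286.0 and 276.5 CPM at day 0, at 140.6, 126.6 and 147.2 CPM on day 2 and at 245.9, 289.0 and 263.3 CPM at day 4. Day 2 lay apart from both, while days 0 and 4 overlapped. It fell by 0.62 at day 1, by 1.02 on day 2 and by 0.41 at day 3 on the log2 scale (adjusted p = 3.9e-05, 6.6e-08 and 0.00129 by edgeR), and on day 4 its change was -0.07 (adjusted p = 0.548).

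Rragb rose while its Xi share fell in the deletion lines. It was at 27.9, 19.1 and 24.9 CPM at day 0, at 61.7, 52.6 and 51.5 CPM on day 2, at 87.8, 79.9 and 74.7 CPM at day 3 and at 49.2, 38.6 and 45.1 CPM on day 4. No library of days 1 to 4 overlapped day 0. The log2 changes were 0.77, 1.20, 1.75 and 0.89 at days 1 to 4 (edgeR, adjusted p = 0.000421, 2.5e-06, 2.1e-08 and 6.7e-05).

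Armcx4 kept the steadiest total. It was at 78.7, 75.6 and 71.8 CPM at day 0, at 111.7, 85.3 and 99.9 CPM on day 1, at 88.5, 69.1 and 94.0 CPM at day 2 and at 91.5, 80.7 and 77.5 CPM on day 4. It rose at day 1 (log2 change 0.39 ± 0.14 SE, edgeR adjusted p = 0.0335), a call that was lost without replicate 1 (0.32), without replicate 3 (0.35) and with TMM factors over all genes (0.35). Its changes at days 2, 3 and 4 were 0.15, 0.09 and 0.14 and passed no threshold (adjusted p = 0.388, 0.614 and 0.419).

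These calls stand on a background in which many genes moved. Among 18871 genes tested, 25% were called higher and 21.9% lower at day 1, 28.6% and 27.4% on day 2, 28% and 28.1% at day 3, and 29.8% and 30% on day 4. The 4 genes gave 2 higher and 2 lower at day 1, 1 and 2 on day 2, 1 and 1 at day 3, and 1 and 0 on day 4, so a call in itself was nothing uncommon. The median log2 change over the 4 was -0.43 at day 2, beside -0.01 over all genes and -0.17 over the 735 X-linked genes tested.

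The partners of these genes were read from lists of textbook members. Of 15 Rag, Ragulator and mTORC1 genes, 5 rose and 1 fell at day 2 in TX1072 (median 0.16), where 28.6% of all genes tested were called higher and 27.4% lower. Rragd, the partner GTPase RagD, rose by a log2 change of 1.33, Slc38a9, the lysosomal arginine sensor, by 1.37 and Lamtor3, a Ragulator subunit, by 0.88, while Lamtor2 fell by 0.35 on that scale. Rraga, the autosomal paralog of Rragb, rose by 0.32 (adjusted p = 0.0255 by edgeR), and Mtor itself was at 0.20 (adjusted p = 0.161).

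Among genes of the NCoR corepressor, Gps2, a subunit of the complex, fell by 0.94, Hdac3 by 0.31 and Tbl1xr1, the autosomal paralog of Tbl1x, by 0.30 on the log2 scale at day 2, whereas Ncor1, its scaffold, was at -0.10 without passing the test. At day 4, when Tbl1x was at -0.07, Ncor1 and Tbl1xr1 had fallen by 0.69 and 0.86 on that scale, whereas Gps2 was at -0.19 and Hdac3 at -0.05 without passing the test, beside 30% of all genes called lower.

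Of 8 Armcx and Gprasp genes, 4 rose and 1 fell at day 2 (median 0.28), beside the same 28.6% and 27.4% of all genes. Armcx2, Armcx6 and Armcx3 rose by log2 changes of 3.00, 2.38 and 2.10 and Armcx1 fell by 1.29 on that scale, with Armcx4 at 0.15. Among Firre partners, Ctcf rose by 0.30, Hnrnpu was at 0.29 (adjusted p = 0.0543 by edgeR), and the noncoding RNA gene 4933407K13Rik fell by 1.57 on the log2 scale at day 2 and by 0.71 on day 4. The escape genes gave 2 higher and 0 lower at day 2, Kdm6a at 0.46 and Ddx3x at 0.49.

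**Figure D2:**
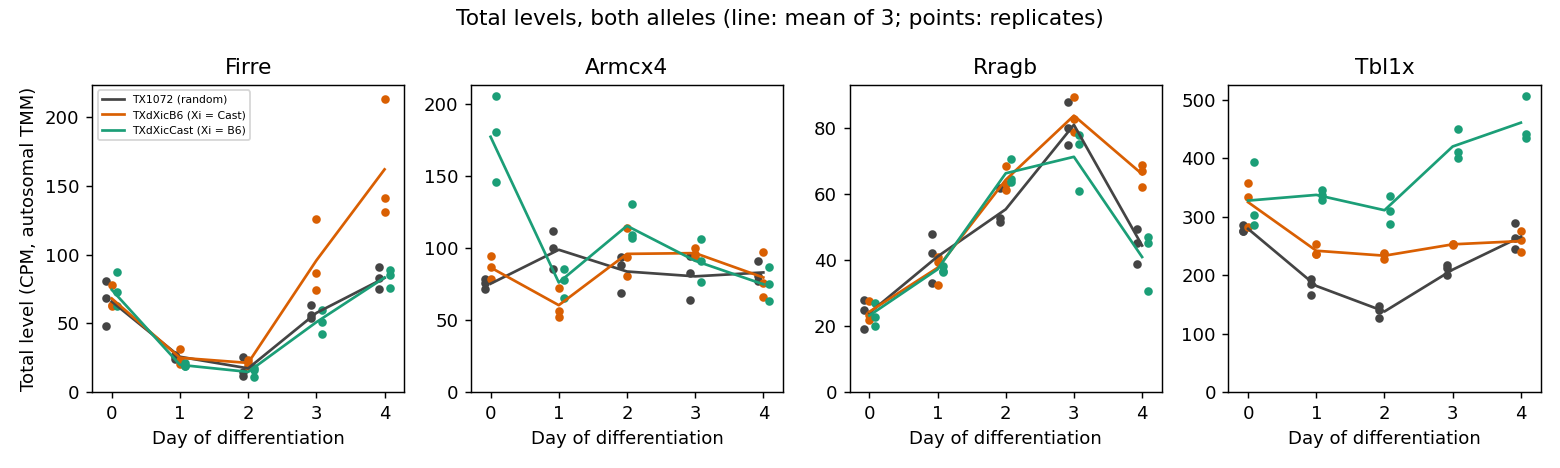
Total level in CPM (vertical axis, own scale for each gene) by day (horizontal axis) in TX1072, TXdXicB6 and TXdXicCast, with points for replicates and lines for their mean (n = 3). Firre is lowest at day 2 in all 3 lines, and at day 4 TXdXicB6 is highest for Firre and TXdXicCast for Tbl1x.

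The allelic balance in TX1072, where either X can be silenced, gives the bias between B6 and Cast alleles without a fixed Xi. At day 0 the B6 allele supplied 75.8, 77.6 and 79.5% of allele-specific Firre counts, and B6 counts exceeded Cast counts by 1.77 ± 0.09 (log2, SE, edgeR adjusted p = 1.1e-34). Tbl1x was on the other side at 44.6, 46.8 and 42.9% (-0.30 ± 0.08, adjusted p = 0.001). Armcx4 was at 57.3, 59.6 and 57.0% (0.46 ± 0.15, adjusted p = 0.00757) and Rragb at 44.4, 29.6 and 28.3% (-0.69 ± 0.23, adjusted p = 0.0112). The Armcx4 call was lost without replicate 1 (0.48) or replicate 2 (0.42), and the Rragb call without replicate 2 (-0.60) or replicate 3 (-0.50), while without replicate 1 the Rragb difference was -1.30. Of 15723 genes tested, 22.5% were called B6-higher and 16.3% B6-lower, and of the 540 X-linked genes 98 were called in each direction, beside 2 of the 4 in each direction here.

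The balance of Armcx4 moved towards Cast in TX1072, and whether it moved more than that of the other genes was not tested. Its B6 share was 49.4, 43.8 and 49.2% at day 2 and 43.0, 40.4 and 39.5% on day 4, and each was below the day 0 libraries. The shift from day 0 was -0.60 ± 0.20 at day 2 (edgeR adjusted p = 0.0296) and -0.98 ± 0.20 on day 4 (adjusted p = 5.8e-05). The day 2 call was lost without any 1 replicate (-0.46 to -0.68), by DESeq2 (-0.60, adjusted p = 0.0706) and with no filter (-0.60, adjusted p = 0.0687), and that of day 4 held in each of these. At day 2, 6.47% of genes shifted towards B6 and 6.18% towards Cast, and at day 4 6.26% and 6.68%. Of 540 X-linked genes, 34 shifted towards B6 and 22 towards Cast at day 2, and 23 and 29 at day 4. The neighbour Armcx1 had a mean B6 share of 50.5% at day 0, 42.2% at day 2 and 40.9% at day 4. Of 8 other Armcx and Gprasp genes, 1 was called towards Cast at each of these days and 0 towards B6.

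The other 3 passed no threshold at either day. Firre was at 83.8, 80.7 and 78.3% B6 at day 2 and 75.8, 77.2 and 73.5% on day 4, and the shift was 0.33 and -0.14 (adjusted p = 0.341 and 0.575). Rragb was at 48.1, 47.0 and 43.5% and then 49.0, 43.2 and 51.6%, with shifts of 0.46 and 0.62 (adjusted p = 0.349 and 0.167). Tbl1x was at 48.5, 53.1 and 47.8% and then 39.4, 47.3 and 43.2%, with shifts of 0.28 and -0.08 (adjusted p = 0.158 and 0.761). For Rragb only 27 to 193 allele-specific counts a library stood behind these shares and those of day 0.

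**Figure D3:**
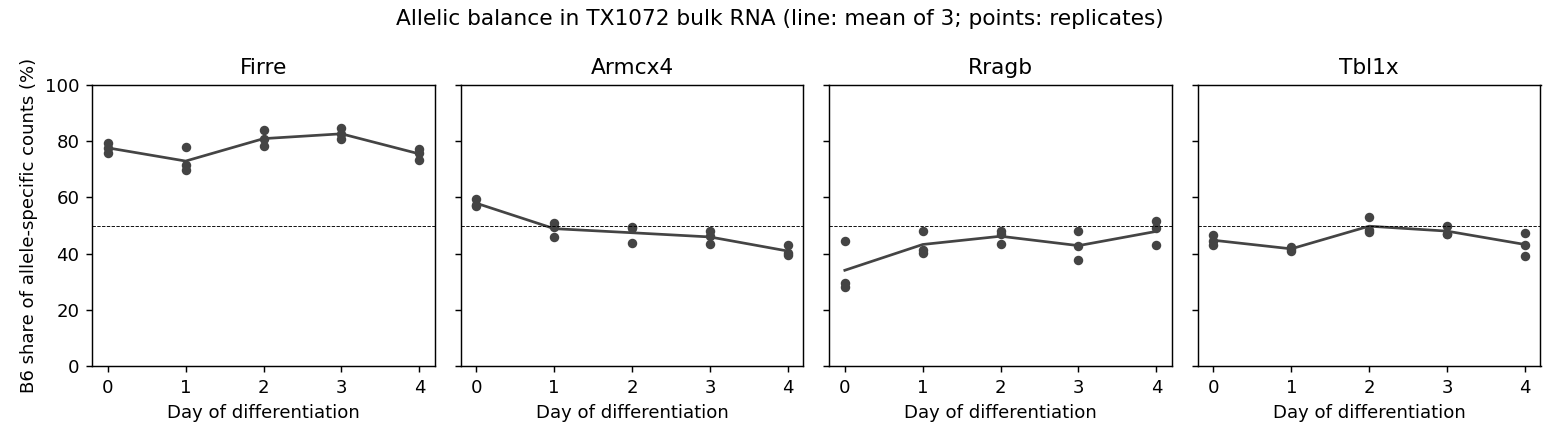
Share of allele-specific counts from the B6 allele in percent (vertical axis) by day (horizontal axis) in TX1072 bulk RNA, with points for 3 replicates, a line for their mean and a dashed line at equal shares. Firre stays between 69.6 and 84.7% B6, and Armcx4 goes from 57.0 to 59.6% at day 0 to 39.5 to 43.0% at day 4.

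Whether total levels depended on which X was silenced was examined by setting TXdXicCast against TXdXicB6. At day 0 Armcx4 was higher in TXdXicCast, at 180.6, 146.0 and 205.8 CPM against 86.7, 78.5 and 94.8 CPM (log2 difference 1.03 ± 0.16 SE, edgeR adjusted p = 8.4e-05). Firre, Rragb and Tbl1x differed by 0.13, -0.06 and 0.01 (adjusted p = 0.71, 0.811 and 0.957). Of 19885 genes tested, 9.75% were called higher and 10% lower in TXdXicCast at that day. These are the libraries with degraded RNA, so RNA state and line cannot be told apart at day 0, and on day 1 Armcx4 was at 77.8, 85.6 and 65.3 CPM against 52.4, 56.7 and 72.4 CPM.

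At day 2 no gene of the 4 passed the test, in a comparison where 0.196% of genes were called higher and 0.176% lower. Tbl1x was at 310.8, 287.7 and 335.5 CPM in TXdXicCast and at 227.5, 235.9 and 237.3 CPM in TXdXicB6, with no overlap, and its difference of 0.41 ± 0.10 had an adjusted p of 0.0791 by edgeR. With the replicate number as a block the same difference was called (0.41, adjusted p = 0.0332), as it was by DESeq2 (0.42, adjusted p = 0.00696), and the block took the genes called lower from 35 to 71. Firre was at 16.1, 17.3 and 10.99 CPM against 23.3, 19.2 and 21.4 CPM (-0.53 ± 0.20, adjusted p = 0.566), a difference that was called with no filter on low counts (-0.51, adjusted p = 0.0336).

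At day 4, 3 of the 4 differed, against 4.08% of genes called higher and 1.82% called lower. Firre was lower in TXdXicCast, at 75.5, 85.3 and 89.0 CPM against 131.2, 141.2 and 213.0 CPM (-0.96 ± 0.20 SE, edgeR adjusted p = 0.00302). Without replicate 3 that call was lost (-0.74, adjusted p = 0.0511). Rragb was lower as well, at 46.8, 45.2 and 30.6 CPM against 68.8, 62.1 and 67.0 CPM (-0.69 ± 0.13, adjusted p = 0.00172). Tbl1x was higher, at 434.6, 442.0 and 506.6 CPM against 260.5, 276.0 and 239.2 CPM (0.83 ± 0.10, adjusted p = 1.8e-05). Armcx4 differed by -0.09 (adjusted p = 0.833). In Firre, Rragb and Tbl1x the lines did not overlap, and the block took the genes called lower from 361 to 658 without changing a call of the 4.

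Cell type markers moved in the same libraries. TXdXicCast day 4 replicate 3, which had the lowest Rragb and the highest Tbl1x level, had a mesoderm marker sum of 128.8 CPM against 24.8 and 15.5 CPM in the other two, and an endoderm sum of 24.4 CPM against 8.90 and 7.21 CPM. The formative sum was 703.4 CPM there and 1125.8 and 1272.3 CPM in the others, and 1603.4, 1747.0 and 1310.4 CPM in TXdXicB6. Without replicate 3 the day 4 differences of Rragb and Tbl1x kept their calls, and the part of the cell types in them was not tested.

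The change from day 0 was also compared between the lines, a contrast added after the values had been seen. At day 4 it was lower in TXdXicCast for Firre (-1.08 ± 0.28 SE), Armcx4 (-1.12 ± 0.23) and Rragb (-0.63 ± 0.19) and higher for Tbl1x (0.82 ± 0.14), with edgeR adjusted p of 0.00852, 0.00195, 0.0239 and 0.00066. At day 2 it was lower for Armcx4 (-0.77 ± 0.23, adjusted p = 0.0424) and passed no threshold for Firre (-0.65), Rragb (0.10) and Tbl1x (0.40, adjusted p = 0.0897). With the replicate number as a block Tbl1x was called at day 2 as well (0.40, adjusted p = 0.0484), and the number of genes called went from 665 to 1232 higher and from 636 to 1329 lower. In the fit without the block, 3.34% of genes were higher and 3.2% lower at day 2, and 7.99% and 7.01% on day 4.

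Single replicates decided several of these. Without replicate 3 none of the 4 passed at day 4 (Firre -0.83, Armcx4 -0.78, Rragb -0.41, Tbl1x 0.58), without replicate 2 the call of Rragb was lost (-0.73), and the day 2 call of Armcx4 was lost without any 1 of them (-0.55 to -0.94). The degraded day 0 libraries of TXdXicCast enter each value. The median over 744 X-linked genes was 0.38 at day 4, on the side of Tbl1x and opposite to the other 3.

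In single TX1072 cells the Xi was read from Xist, and a cell with Xist from 1 allele only was taken to have its Xi there. At day 2 the retained cells gave 8049 B6 and 2112 Cast Xist molecules, while bulk TX1072 Xist was 52.0% B6. The paper proposes a possible detection bias of the single-cell protocol for such a mismatch. It also reports that more cells expressed Xist from B6 than from Cast. By imaging of Xist RNA, it found many day 2 cells with Xist on both X chromosomes. A day 2 cell classed here therefore need not have had a single Xi. At that day 78 cells were classed as B6 and 12 as Cast. Whether cells classed as B6 also held undetected Cast Xist was not tested. Of 2000 capture sites, all with distinct names, 1472 cells had been retained by the study, 257 to 341 a day, with a median of 132847 molecules (UMIs) a cell. Summed over cells, Firre was at 47.4, 21.2, 9.52, 31.4 and 41.2 CPM of UMIs at days 0 to 4, Tbl1x at 187.6, 133.4, 94.7, 153.0 and 175.3, Rragb at 8.91, 13.6, 26.8, 28.7 and 21.2, and Armcx4 at 38.4, 54.3, 49.5, 44.0 and 41.2. There was 1 culture a day, so no test was made, and the intervals below are exact 95% binomial intervals that cover counting error only.

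At days 2 to 4, 218 cells had more than 5 allele-specific Xist UMIs, all from B6, and 93 had them all from Cast. Tbl1x, the gene with most UMIs, had an Xi share of 17.3% (136 of 787 UMIs, interval 14.7 to 20.1%) where Xi was B6 and of 14.4% (48 of 334, 10.8 to 18.6%) where it was Cast. It went from 30.1% at day 2 to 29.0% on day 3 and 7.36% at day 4 in the first cells and from 47.6 to 22.5 and 4.72% in the second. Rragb was at 16.2% (22 of 136, 10.4 to 23.5%) and 15.0% (9 of 60, 7.10 to 26.6%). Its UMIs came from 45 and 13 cells, with up to 14 and 11 UMIs in 1 cell, a clustering that the intervals do not cover. The other X-linked genes together were at 34.1% and 21.8%, above the pooled values of both genes. On single days both genes were also below the other X-linked genes, except at day 2 with Xi on Cast, where Tbl1x at 47.6% and Rragb at 47.1% were above their 37.6%. At day 3 the intervals of both genes included the value of the other X-linked genes, whichever X was the Xi. With Xi on B6 that of Tbl1x was 22.3 to 36.5%, against 34.1%. These shares are not corrected for the starting balance. In cells without an Xist UMI, B6 supplied 42.6% of Tbl1x UMIs but 50.6% of those of the other X-linked genes. Pooled values weight the days by their UMIs, and that weighting differs between genes.

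Firre and Armcx4 gave few allele-specific UMIs. Firre was at 27.7% (13 of 47, 15.6 to 42.6%) with Xi on B6 and at 5.80% (4 of 69, 1.60 to 14.2%) with Xi on Cast. At day 2 it was at 72.7% (8 of 11, 39.0 to 94.0%) with Xi on B6 and had no UMI with Xi on Cast, so the low pooled shares came from days 3 and 4. Armcx4 was at 19.2% (5 of 26, 6.55 to 39.4%) and at 0% (0 of 11, which allows up to 28.5%). In the 435 cells without an Xist UMI, 260 of them of day 0, B6 supplied 77.7% of Firre UMIs (71.6 to 83.0%), 65.5% of Armcx4 UMIs, 46.6% of Rragb UMIs and 42.6% of Tbl1x UMIs. Cast supplied the other 22.3% for Firre, and the pooled Firre share from an Xi on either allele was below that of the same allele in these cells. These UMIs came from few cells, 23 and 26 for Firre and 18 and 7 for Armcx4, with up to 6 and 4 UMIs in 1 cell. For Rragb at day 2 with Xi on Cast, 47.1% rested on 17 UMIs of 3 cells, and leaving out either of 2 capture columns moved it to 0 or 88.9%.

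**Figure D4:**
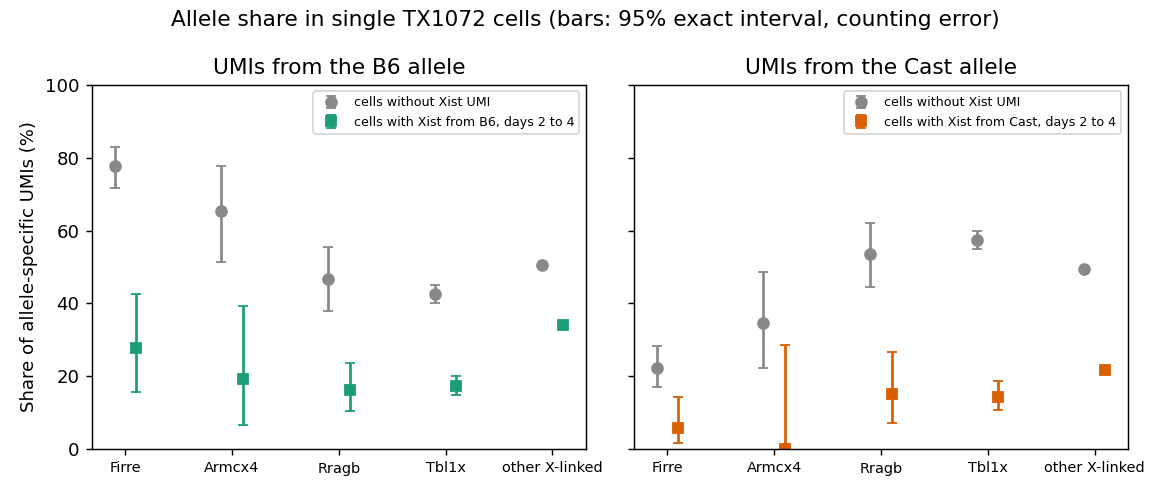
Share of allele-specific UMIs from B6 (left) and from Cast (right) in percent (vertical axis) for the 4 genes and all other X-linked genes, in cells without an Xist UMI (grey circles) and in cells of days 2 to 4 with Xist from that allele (coloured squares). Bars are exact 95% intervals for counting error. Each square lies below its circle, and for Tbl1x the squares are at 17.3 and 14.4%.

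Unspliced molecules, those overlapping an intron, made up a different part of each gene. In Firre they were 51.7% of UMIs at day 0 (1811 unspliced, 1693 spliced), 72.1% on day 1, 65.1% at day 2, 55.4% on day 3 and 54.1% at day 4. In Tbl1x they were 30.9, 42.5, 43.2, 43.7 and 34.6%, and in Rragb 35.2, 45.6, 37.2, 44.2 and 41.3%. In Armcx4 they were 0.796, 3.63, 1.94, 1.75 and 3.82%, against 10.2 to 13.6% in the other X-linked genes together. Of the 10.2 kb of Armcx4, exons take 7996 bases, whereas in Firre they take 8247 bases of 79.6 kb, in Rragb 2258 of 32.0 kb and in Tbl1x 7052 of 152.0 kb.

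Spliced Firre UMIs went from 1693 in 277 cells at day 0 to 791 in 325 cells on day 1 while unspliced UMIs went from 1811 to 2048, and at day 2 both were lower, at 361 and 674 in 341 cells. In Tbl1x spliced UMIs went from 7140 to 5378 between days 0 and 1 and unspliced ones from 3187 to 3969. Unspliced UMIs of all genes went from 4459692 to 5931346 between these days. As a share of all unspliced UMIs, the unspliced UMIs of both genes were therefore lower at day 1, whereas as a share of all UMIs they were higher. Over all genes the unspliced share was 10.7% at day 0, 13.3% on day 1 and 10.9% at day 2. Since only day 1 had the Rapid Run, day and sequencing mode cannot be told apart for the values of day 1.

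**Figure D5:**
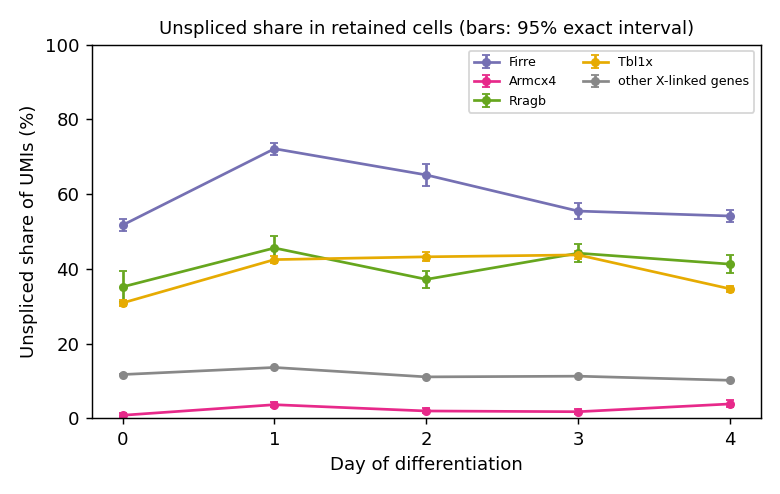
Unspliced share of UMIs in percent (vertical axis) by day (horizontal axis) for the 4 genes and all other X-linked genes in the retained cells. Bars are exact 95% intervals for counting error. Firre peaks at 72.1% at day 1, the day with an added sequencing mode, and Armcx4 is at most at 3.82%.

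On each day B6 supplied a larger share of spliced than of unspliced Firre UMIs, a description of counts from 1 culture a day. It supplied 77.9, 65.1, 90.6, 92.3 and 81.4% of spliced allele-specific UMIs at days 0 to 4 and 68.5, 52.0, 62.2, 54.8 and 57.6% of unspliced ones. The intervals at day 2 were 74.98 to 98.0% and 54.1 to 69.8%. The spliced values rest on 95, 63, 32, 52 and 102 UMIs. For Rragb B6 supplied 44.6, 49.0, 41.6, 49.5 and 40.7% of spliced and 42.5, 47.1, 58.6, 59.6 and 39.7% of unspliced UMIs, so that at days 2 and 3 its order was opposite to that of Firre. For Tbl1x the order changed between days, and B6 supplied 47.7, 41.1, 53.6, 48.4 and 41.1% of spliced and 47.7, 47.8, 47.3, 46.2 and 40.5% of unspliced UMIs. Armcx4 had no row in the allele-specific spliced and unspliced tables used here.

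In cells classed by Xist at days 2 to 4, the B6 share of Firre pooled over the days was also higher among spliced UMIs. At day 1 with Xi on B6 the order was the opposite, with 22.2% of 9 spliced (2.81 to 60.0%) and 63.5% of 63 unspliced UMIs (50.4 to 75.3%). With Xi on B6 at days 2 to 4, the Xi supplied 44.0% of spliced Firre UMIs (11 of 25, 24.4 to 65.1%) and 9.50% of unspliced ones (21 of 221, 5.98 to 14.2%). Day by day these were 80% (8 of 10) and 27.3% at day 2, 50% (1 of 2) and 7.58% on day 3, and 15.4% (2 of 13) and 5.74% at day 4, so day 2 weighs more in the pooled spliced value. With Xi on Cast, it supplied 0 of 42 spliced UMIs, which allows up to 8.41%, and 6.06% of unspliced ones (10 of 165, 2.94 to 10.9%), all of these at day 3. Tbl1x with Xi on B6 had the larger Xi share among unspliced UMIs, with 17.3% of spliced (14.7 to 20.1%) and 26.8% of unspliced UMIs (73 of 272, 21.7 to 32.5%). Day by day these were 30.1 and 41.7% at day 2, 28.8 and 30.7% on day 3, and 7.36 and 13.3% at day 4, and with Xi on Cast the pooled order was reversed, at 14.4% of spliced and 9.23% of unspliced UMIs. Rragb with Xi on B6 was at 28.6% of spliced and 3.03% of unspliced UMIs at day 2, 25% and 28.6% on day 3, and 7.04% and 5.45% at day 4, and pooled at 16.4% and 11.4%. With Xi on Cast it was at 15% and 8.57%, pooled. In all other X-linked genes together the values with Xi on B6 were 32.5% and 31.3%, and with Xi on Cast 23.2% and 24.2%.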

How the data were processed

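Bulk reads were aligned by the authors with STAR 2.5.2b to mm10 with strain differences masked, and the deposited counts are reads per gene by featureCounts, in total and per allele. Deposited single-cell counts are UMIs per gene, split by the authors into spliced (exons only) and unspliced (overlapping an intron) and by allele, and the cells retained here are those the study retained. No depth normalization had been applied to the counts. Depth was 16906263 to 57920260 counts a bulk library, and allele-assigned shares were 5.21 to 34.9%.

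Here, counts were scaled by TMM factors over autosomal genes and tested with edgeR 4.0.16 (quasi-likelihood, Benjamini-Hochberg over all genes passing filterByExpr) in R 4.3.3, TX1072 and the deletion lines separately. Allelic balance was tested on B6 and Cast counts of the same library for genes with at least 50 allele-specific counts. A call is an adjusted p under 0.05. Xi:Xa was log2 of the counts, each plus 1, set against day 0, with the SD over differences within replicate numbers. DESeq2 1.42.0, other scaling, no filter, a replicate block and leaving out each replicate were the alternatives. Each replicate number was a differentiation of its own day, which is the source of the pairing. Samples of the same number deviated together with a median correlation of 0.183 in TX1072 and 0.206 in the deletion lines. For other numbers it was -0.102 and -0.139. Deviations were taken from the mean of each group, which makes the latter negative when the former are positive, so they are no separate contrast. On simulated data, 75% of genes changed 2-fold and 95% of those changed 4-fold were recovered for TX1072 day 2 (18900 genes).

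The 4 genes, the gene lists and the tests were chosen with earlier results of these data known. Genes named were the 4, the members of the lists and, for each of the 4, the 3 X-linked genes of nearest Xi:Xa course. SNP windows came from GENCODE vM21 transcripts and promoters from RefSeq (4 of 4 genes matched). In 1 of the lists, a gene and the counts over that list are not reported here.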

Additional observations from a re-analysis of the deposited data

Results flagged for a closer look

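The change of total level from day 0 differed between the deletion lines for these genes by a test of the difference itself (TXdXicCast less TXdXicB6, log2, edgeR). For Armcx4 the difference was -0.77 at day 2 and -1.12 at day 4. At day 4 it was -1.08 for Firre, -0.63 for Rragb and 0.82 for Tbl1x. Without replicate 3 none of the day 4 differences passed the test (-0.83 for Firre, -0.78 for Armcx4, -0.41 for Rragb and 0.58 for Tbl1x), without replicate 2 that of Rragb did not (-0.73), and the day 2 difference of Armcx4 was lost without any 1 replicate (-0.94 to -0.55). The contrast was added after the values had been seen, each value includes the day 0 libraries of TXdXicCast made from degraded RNA, and each line is 1 clone, so line, clone and RNA state cannot be told apart.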

How the results depend on the processing

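Armcx4 at day 1 in TX1072 lost its call with TMM factors over all genes (0.35), and its day 2 allelic shift with DESeq2 (-0.60) and with no filter on low counts (-0.60). Without the filter, Firre was called at day 4 in TX1072 (0.38), at day 2 between the lines (-0.51) and in the line difference at day 2 (-0.66). Tbl1x was called between the lines at day 2 by DESeq2 (0.42) and with the replicate number as a block (0.41), and in the line difference at day 2 by DESeq2 (0.39) and the block (0.40). The block changed no other call of the 4 genes.

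Counts of genes called higher and lower moved by more than 1.5 times under some settings. With DESeq2 the allelic shift of day 2 gave 670 and 647 (1018 and 971 by edgeR), and that of day 4 gave 698 lower (1050). Between the lines at day 2, 39 and 35 became 70 and 69 with DESeq2, 86 and 114 without the filter and, with the block, 71 lower. At day 4, 361 lower became 558 with DESeq2 and 658 with the block. The line difference at day 2 gave 1053 and 1126 with DESeq2 and 1232 and 1329 with the block (665 and 636). Leaving out 1 replicate gave 409 to 1415 higher and 379 to 1554 lower between the lines at day 0, 0 to 15 in each direction on day 2, and 285 to 341 higher and 60 to 96 lower on day 4. For the line difference of day 2 it gave 0 to 136 higher and 1 to 92 lower, and for that of day 4 it gave 78 to 997 higher and 23 to 796 lower.

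Leaving out 1 replicate, Armcx4 ranged from 0.32 to 0.46 at day 1, from 0.42 to 0.48 in its day 0 balance, from -0.68 to -0.46 in its day 2 shift, and from -0.94 to -0.55 and -1.33 to -0.78 in the line difference of days 2 and 4. The day 0 balance of Rragb ranged from -1.30 to -0.50 and its line difference from -0.77 to -0.41. Firre ranged from -1.06 to -0.74 between the lines at day 4 and from -1.25 to -0.83 in the line difference, and Tbl1x from 0.58 to 1.04. The Xi:Xa change of Armcx4 in TXdXicB6 ranged from -1.18 to -0.24 on day 2 and from -2.04 to -1.12 on day 4, and its share reached at day 2 from 21.3 to 58.0%, that of Tbl1x from 71.0 to 74.8%. In TXdXicCast, Rragb ranged from -1.14 to -0.63 (day 2) and from -1.42 to -0.71 (day 4), Firre from -1.89 to -1.71 and Tbl1x from -1.44 to -1.34 at day 4. With counts summed over replicates, Armcx4 in TXdXicB6 changed by -1.11 at day 2 (61.4% of day 4), Tbl1x reached 70.1%, and Rragb in TXdXicCast changed by -1.12. With a minimum of 20 counts, Rragb and Tbl1x stood at percentiles 16.6 and 11.2 in TXdXicCast, and with 200 counts Firre, Rragb and Tbl1x stood at 13.5, 2.04 and 6.12 in TXdXicB6.

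In single cells with more than 10 Xist UMIs, Rragb on B6 was at 8.33% at day 3 and Tbl1x on Cast at 29.2% at day 2, and with up to 20% of Xist from the other allele Tbl1x on B6 was at 42.6% at day 2. Leaving out 1 capture column gave at day 3 on B6 0 to 33.3% for Firre and for Armcx4 and 8 to 31.8% for Rragb. At day 3 on Cast it gave 0 to 30.8% for Firre, 0 to 20% for Rragb and 12.9 to 26.2% for Tbl1x, and at day 2 on Cast 0 to 88.9% for Rragb and 11.8 to 57.1% for Tbl1x. With cells thinned to 40000 UMIs the unspliced share was 69.6 and 53.3% for Firre at days 2 and 3, 0 and 4.85% for Armcx4 at days 0 and 4, and 52.0% for Rragb at day 1. The cause of these shifts was not tested. Few allele-specific counts limit Rragb at day 0 in bulk and Firre and Armcx4 in single cells, where Armcx4 had 2084 UMIs at day 2 of which 15 were assigned to B6 and 16 to Cast.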
